A study of Mus musculus with 39 samples.

Results

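The genes described here encode the proteins of the cytosolic ribosome of the mouse. They were chosen by name alone: protein-coding genes whose symbol is Rpl or Rps followed by a number, Rplp or Rpsa, with kinase genes (Rps6k) and pseudogenes left out. The rule found 84 of the 24100 genes in the count table, 52 of the large subunit (Rpl) and 32 of the small subunit (Rps). No expression value was used to choose them, but they were chosen with earlier results of these data known.

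A ribosome joins a small subunit, which reads the messenger RNA (mRNA), to a large subunit, which forms the peptide bond. Cells make ribosomal proteins in near equal amounts, and many of their mRNAs open with a run of pyrimidines (a 5' terminal oligopyrimidine or TOP tract) through which growth signals set their translation together. Cerebellar granule cells are small neurons that arise after birth from progenitors which divide rapidly in the outer layer of the cerebellum, stop dividing, migrate inward and form synapses.

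The series holds 39 RNA libraries in 13 groups, from mouse cerebellum and from isolated or cultured granule cell progenitors. Translating ribosome affinity purification (TRAP) pulls down a green fluorescent copy of ribosomal protein L10a, the product of Rpl10a, with the mRNAs bound to it. The first TRAP line, Tg(Atoh1-Egfp-L10a), called Math1 here, carries the tag under an Atoh1 transgene and gave 4 libraries from granule cell progenitors isolated at postnatal day 7 (P7). The second, Tg(NeuroD1-Egfp-L10a), carries it under a NeuroD1 transgene and gave 5 libraries each from cerebellar lysate at P7, P12 and P21, with 1 library of unpurified cerebellar RNA (input) at each age. Cultured progenitors came from C57Bl/6J pups: 2 libraries each of cells taken at isolation (day in vitro 0, DIV0), at DIV2 and DIV5 in the solvent DMSO, and at DIV5 in 100 nM UNC1999, an inhibitor of the histone methyltransferases EZH2 and EZH1. A further culture experiment compared Ezh1(wt/wt);Atoh1-Cre (wt, 5 libraries) with Ezh1 cKO;Atoh1-Cre (4 libraries) at DIV5, both genotypes carrying Atoh1-Cre, a recombinase active in progenitors. The labels do not tie replicates to separate animals or litters, so p-values measure the spread between these libraries, which may be technical.

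Libraries held 12084136 to 38546538 counts. After the filter on low counts 80 of the 84 genes were tested in every fit but that of the Ezh1 libraries, where 77 were; Rpl10l, Rpl39l and Rpl3l passed in none. Levels are given in CPM, a gene's counts per 1000000 counts of the library, and changes as log2 fold changes from edgeR's quasi-likelihood test with TMM scaling, called at an adjusted p under 0.05 over all genes tested. Granule cell markers summed to 7620.3 to 12667 CPM in NeuroD1 TRAP and 5176 to 7737 in input, Purkinje cell markers to 186 to 855 and 2001 to 5106, and vascular and meningeal markers to 481 to 488 at DIV0 and 8057 to 8781 at DIV5. In the Ezh1 experiment replicates 1 and 2 of both genotypes stood apart from replicates 3 to 5, and among the P21 TRAP libraries replicates 2 and 3 stood apart from 1, 4 and 5; results that rest on them are given with and without them. In these bulk samples fewer cells of a type and less RNA per cell cannot be told apart.

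Runs of pyrimidines were looked for around RefSeq start sites on GRCm38.p6, which were given for 64 of the 84 genes. A run of at least 8 C or T bases on the sense strand, between 30 bases before and 50 after the start, was found in 50 of them, 78.1%, against 32.2% of 17492 protein-coding genes and 30.4% of 69 genes for mitochondrial ribosomal proteins. The same search for runs of 8 A or G bases on the sense strand found 15.6% of the ribosomal protein genes and 34.3% of all genes. Such runs are C or T runs on the opposite strand. The 30 bases around the longest run are printed for the genes that the results below turn on, with the run in capitals. A run is a description of the letters, not a tested site. It need not lie at the first bases of the mRNA, where a TOP tract does. The run of Rps27l began at position -22 from the start and that of Rps21 at position 35.
Rpl10a, chr17:28328572-28328601, plus strand: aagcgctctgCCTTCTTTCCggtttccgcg
Rpsa, chr9:120127775-120127804, plus strand: ccggccgcccgTCCTTTCgcgctacccggg
Rps6, chr4:86857349-86857378, minus strand: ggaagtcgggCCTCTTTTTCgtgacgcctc
Rpl15, chr14:18270967-18270996, minus strand: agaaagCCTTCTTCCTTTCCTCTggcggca
Rpl38, chr11:114668568-114668597, plus strand: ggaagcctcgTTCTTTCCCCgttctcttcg
Rps21, chr2:180257399-180257428, plus strand: ggaggcacgagctaCTTCCTTTCTgcgctc
Rpl22, chr4:152324414-152324443, plus strand: atatcagcgctgCTTCTggaatgttccagc
Rpl22l1, chr3:28805499-28805528, plus strand: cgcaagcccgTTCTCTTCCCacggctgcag
Rps27, chr3:90213631-90213660, minus strand: tccgctttcgCTCCTTTCCggcggtgacga
Rps27l, chr9:66946054-66946083, plus strand: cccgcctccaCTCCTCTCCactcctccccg
Rpl15 has the longest run of these, 17 bases. The longest run of Rpl22 is 5 bases, while that of its paralog Rpl22l1 is 10 bases.

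Ribosomal protein genes took the largest share of counts in purified mRNA of progenitors, and their share was lower at later ages in TRAP and input alike. The share of all counts was 6.21, 6.93, 6.21 and 6.01% in the 4 Math1 libraries. In NeuroD1 TRAP it was 4.26, 4.75, 4.11, 4.74 and 4.68% at P7, 2.99, 3.56, 3.99, 3.16 and 3.13% at P12 and 2.79, 3.86, 3.76, 2.82 and 2.86% at P21. The P7 libraries lay below all Math1 libraries and above all P12 and P21 libraries, while P12 and P21 overlapped, the P21 replicates 2 and 3 being the high ones.

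Input libraries gave 3.61% at P7, 2.00% at P12 and 1.39% at P21, each below every TRAP library of its age. In culture the share was 2.47 and 2.51% at DIV0, 1.32 and 1.37% at DIV2, 1.93 and 1.83% at DIV5 and 1.52 and 1.64% at DIV5 with UNC1999, with no overlap between any of the 4 groups. These are shares of counts and a description, with no test.

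**Figure D1:**
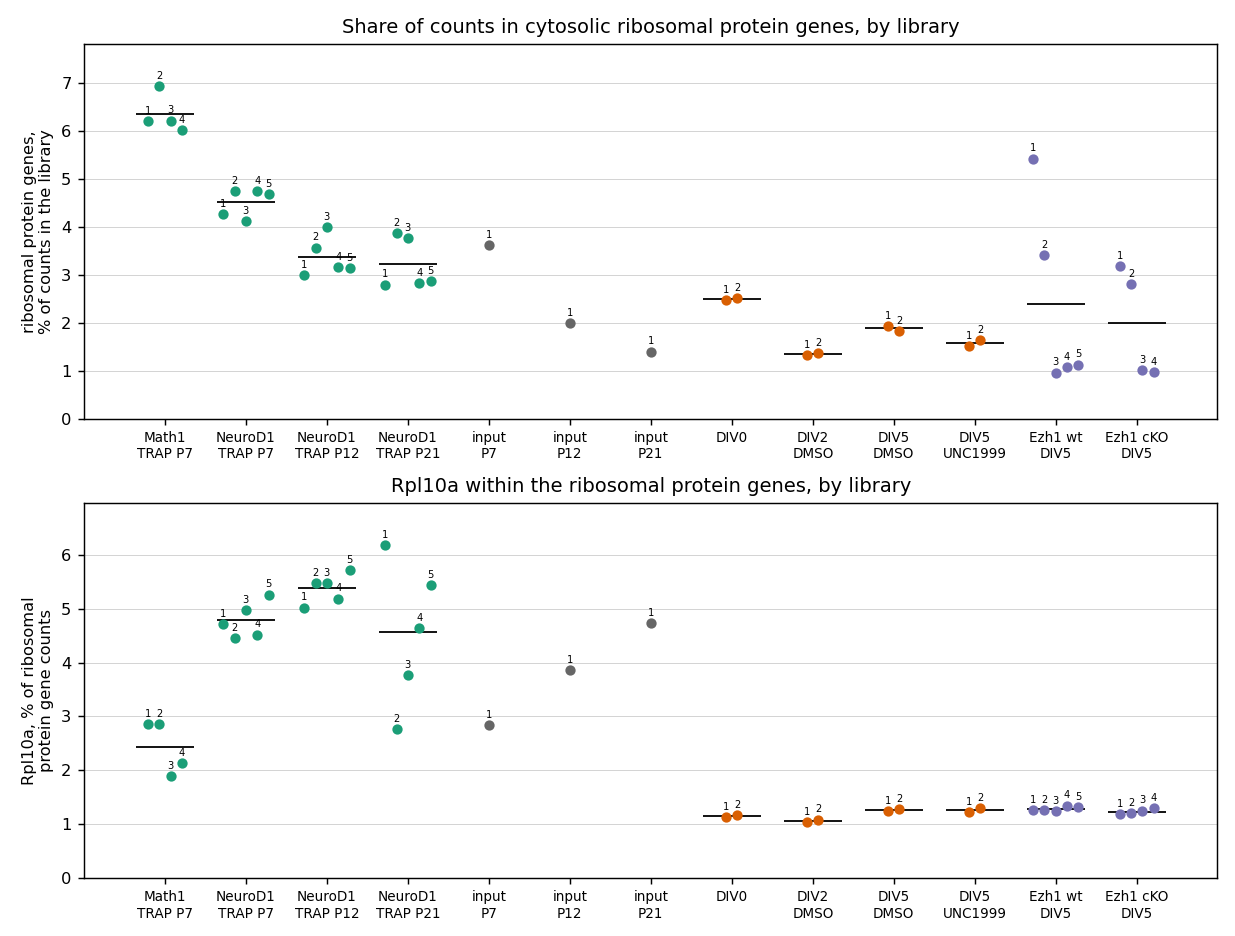
The upper panel plots the share of counts in ribosomal protein genes (y axis, percent of the library) and the lower panel the part of those counts, without 4 X-linked genes that are blank in the Ezh1 libraries, in Rpl10a (y axis, percent), 1 point per library with its replicate number, by group (x axis); bars are group means. Shares step down from Math1 to NeuroD1 TRAP and from P7 to P12, Ezh1 replicates 1 and 2 sit above 3 to 5, and Rpl10a is at 1.03 to 1.34% in cultures and at 1.90 to 6.19% in libraries of the TRAP lines.

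The comparison of NeuroD1 TRAP at P12 with P7 asks how ribosome-bound mRNA changed as granule neurons matured. Of the 80 ribosomal protein genes tested, 61 fell and 1 rose, with a median log2 fold change of -0.40; among all 14759 genes 68.2% were called, 31.5% higher and 36.7% lower, and the median was -0.04. The 1 rise was of Rpl22l1, at 0.22 (SE 0.09, edgeR adjusted p = 0.041), and it no longer passed without P7 replicate 2 or 5 or without P12 replicate 2, 3 or 5 (edgeR adjusted p = 0.059 to 0.11). Small subunit genes fell in 29 of 32 cases (median -0.47) and large subunit genes in 32 of 48 (median -0.32). Cell markers moved over the same ages. All 7 dividing cell markers fell at P12 and all 7 fell again at P21, with sums of 709 to 943 CPM at P7, 94.6 to 156 CPM at P12 and 3.48 to 4.91 CPM at P21. Of 7 progenitor markers 6 fell and 1 rose at P12, and the sums were 774 to 892 CPM at P7 and 193 to 202 CPM at P21. All 6 Purkinje cell markers rose from P7, where they summed to 186 to 271 CPM, to P21, where they summed to 712 to 855 CPM, and the part of these shifts in the results on age was not tested.

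Rpsa, the laminin receptor protein of the small subunit, was among the clearest falls. Its level was 733, 854, 718, 844 and 873 CPM at P7, 423, 499, 588, 446 and 428 CPM at P12 and 353, 494, 458, 347 and 362 CPM at P21. P7 lay above both later ages without overlap, and the log2 fold change at P12 was -0.73 (SE 0.11, edgeR adjusted p = 2.9e-06). Rps6, the small subunit protein phosphorylated by S6 kinase, went from 675, 718, 612, 744 and 729.7 CPM at P7 to 434, 500.3, 576, 448 and 445 CPM at P12, without overlap and with a change of -0.51 (SE 0.11, edgeR adjusted p = 2.0e-04). Of the genes whose free proteins are known to bind the p53 regulator MDM2, Rpl5 changed by -0.53 (SE 0.10, edgeR adjusted p = 1.4e-04), while Rpl11 did not pass, at -0.23 (SE 0.10, edgeR adjusted p = 0.053).

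From P7 to P21 the changes of the ribosomal protein genes were more spread out than from P7 to P12, a description not set against the spread of all genes. 46 of 80 fell and 5 rose (81.5% of all genes were called, 38.9% higher and 42.5% lower), the median was -0.28, and the SD among them was 0.37 against 0.19 at P12. The largest falls were of Rpl22, an RNA-binding protein of the large subunit, at -0.94 (SE 0.09, edgeR adjusted p = 4.4e-09), of Rps4x, an X-linked small subunit gene, at -0.94 (SE 0.11, edgeR adjusted p = 6.3e-08), and of Rps27l, a paralog of Rps27, at -0.89 (SE 0.11, edgeR adjusted p = 1.9e-07). Rpl15, a protein of the large subunit core, followed at -0.83 (SE 0.08, edgeR adjusted p = 3.1e-09).

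Within the stalk, the arm of the large subunit that recruits elongation factors, members differed. Rplp0, its base, was at 1036, 1198, 943, 1141 and 1170.5 CPM at P7 and 469, 676, 652, 478 and 478 CPM at P21, with no overlap and a log2 fold change of -0.82 (SE 0.12, edgeR adjusted p = 1.6e-06). In culture the stalk genes differed too: from DIV0 to DIV5 Rplp0 changed by -0.45 (SE 0.06, edgeR adjusted p = 1.1e-05) and Rplp2 by -0.49 (SE 0.05, edgeR adjusted p = 9.8e-07), with Rplp1 not called, at 0.06 (SE 0.07, edgeR adjusted p = 0.39). From P7 to P21 Rplp1 and Rplp2, the proteins that bind it as dimers, did not pass, at 0.23 (SE 0.12, edgeR adjusted p = 0.079) and 0.01 (SE 0.09, edgeR adjusted p = 0.88). Across the 80 genes the change from P7 to P21 had a Spearman correlation of -0.39 with transcript length, a description across genes that share libraries.

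The genes that rose from P7 to P21 in NeuroD1 TRAP were Rpl22l1, Rpl38, Rps21, Rpl24 and Rpl7l1. Rpl38, a large subunit protein known for translation of Hox mRNAs in the embryo, was at 195, 218, 203, 238 and 221 CPM at P7 and 259, 374, 345, 261 and 268 CPM at P21, with every P21 library above every P7 library and a change of 0.66 (SE 0.10, edgeR adjusted p = 2.4e-06). Rps21 was at 267, 305, 281, 300.1 and 306 CPM at P7 and 298, 433, 411, 319.8 and 311 CPM at P21. Those groups overlapped, since P21 replicate 1 lay below P7 replicates 2, 4 and 5, and the change was 0.46 (SE 0.11, edgeR adjusted p = 5.5e-04). With scaling by library size alone Rpl24 and Rpl7l1 no longer passed, at 0.03 and 0.02, and 59 genes fell and 3 rose; that scaling moved the median of all genes to -0.22 from -0.05. Without P21 replicates 2 and 3, a choice made after seeing the data, 61 fell and 4 rose, and Rpl24 was at 0.04. Leaving out P21 replicate 1, 4 or 5 gave 9, 8 and 8 that rose. The rise was not seen in input, which has 1 library an age and was not tested for age. Input levels at P7 and P21 were 59.6 and 46.5 CPM for Rpl22l1, 155 and 99.7 CPM for Rpl38 and 211 and 114 CPM for Rps21. They were 347 and 188 CPM for Rpl24 and 121 and 85.3 CPM for Rpl7l1.

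The step from P12 to P21 had no direction that held. 19 of 80 genes rose and 7 fell at a median of 0.13, where 65.1% of all genes were called, 32.4% higher and 32.7% lower. With library size scaling 7 rose and 14 fell, at a median of -0.02, and 6 rose and 21 fell without P21 replicates 2 and 3, at -0.10. Leaving out P21 replicate 2 alone gave 12 higher, and leaving out P12 replicate 3 gave 30. The members that moved most were Rpl22l1, at 0.88 (SE 0.09, edgeR adjusted p = 3.3e-08), Rpl38, at 0.60 (SE 0.10, edgeR adjusted p = 1.8e-05), and Rplp1, at 0.54 (SE 0.12, edgeR adjusted p = 4.6e-04), on the rising side, and Rps27l, at -0.40 (SE 0.11, edgeR adjusted p = 0.0037), and Rpl15, at -0.39 (SE 0.08, edgeR adjusted p = 1.8e-04), on the falling side. In the 2 high P21 libraries mitochondrial ribosomal protein genes summed to 5055 and 5015 CPM, against 4640.0 to 4794 in the other 3, and the part of this in the result was not tested.

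From P7 to P21 most genes of ribosome assembly and TOP-type translation genes also fell, while most genes for mitochondrial ribosomal proteins rose. Of 22 translation genes with TOP tracts or known to be regulated with them, 18 fell and 3 rose; Nap1l1, a histone chaperone, changed by -1.61 (SE 0.06, edgeR adjusted p = 5.2e-16) and Eif3l, an initiation factor subunit, by -1.28 (SE 0.06, edgeR adjusted p = 1.4e-14). Of 24 ribosome biogenesis genes 19 fell and 2 rose; the nucleolar proteins Ncl and Fbl changed by -1.77 (SE 0.09, edgeR adjusted p = 3.3e-14) and -1.56 (SE 0.08, edgeR adjusted p = 9.2e-14). Of 18 initiation factors and regulators 10 fell and 6 rose. Of 4 Myc factors 3 fell and 1 rose; Mycn, a transcription factor of progenitors known to drive ribosome synthesis, changed by -6.27 (SE 0.16, edgeR adjusted p = 7.4e-19). Of 78 mitochondrial ribosomal protein genes 56 rose and 4 fell (median 0.38), among them Mrpl23 at 1.45 (SE 0.06, edgeR adjusted p = 1.7e-15).

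At P7 the NeuroD1 line was compared with the Math1 line, which differ in driver and also in starting material, lysate against isolated progenitors; the 2 cannot be told apart. 69 of 80 genes were lower in NeuroD1 and 1 was higher, with a median of -0.52, where 72.4% of all genes were called, 36.5% higher and 35.8% lower. Rps2, a small subunit protein near the mRNA entry site, was at 1193, 1304, 1185 and 1199 CPM in Math1 and 463, 577, 450.3, 587 and 512 CPM in NeuroD1, a change of -1.24 (SE 0.12, edgeR adjusted p = 4.1e-09). Rpsa was at 1603, 1803, 1661 and 1580.2 CPM in Math1, above every NeuroD1 library, and changed by -1.05 (SE 0.11, edgeR adjusted p = 3.2e-08). All 7 dividing cell markers were lower in NeuroD1; they summed to 2166 to 2748 CPM in Math1 and 709 to 943 CPM in NeuroD1 at P7. All 6 Purkinje cell markers were higher in NeuroD1, at 26.6 to 48.7 CPM in Math1 and 186 to 271 CPM in NeuroD1, as were 5 of 6 interneuron markers, while 5 of 6 vascular and meningeal markers were lower and 1 higher. The part of these markers in the result was not tested.

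Biogenesis genes were lower in 21 of 24 cases and TOP-type genes in 18 of 22, while 38 of 78 mitochondrial ribosomal protein genes were higher and 18 lower. Math1 replicates 1 and 2 differed from 3 and 4 in some genes; with only replicates 1 and 2, 72 ribosomal protein genes were lower in NeuroD1 and 0 higher, and with only 3 and 4, 48 lower and 2 higher.

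**Figure D2:**
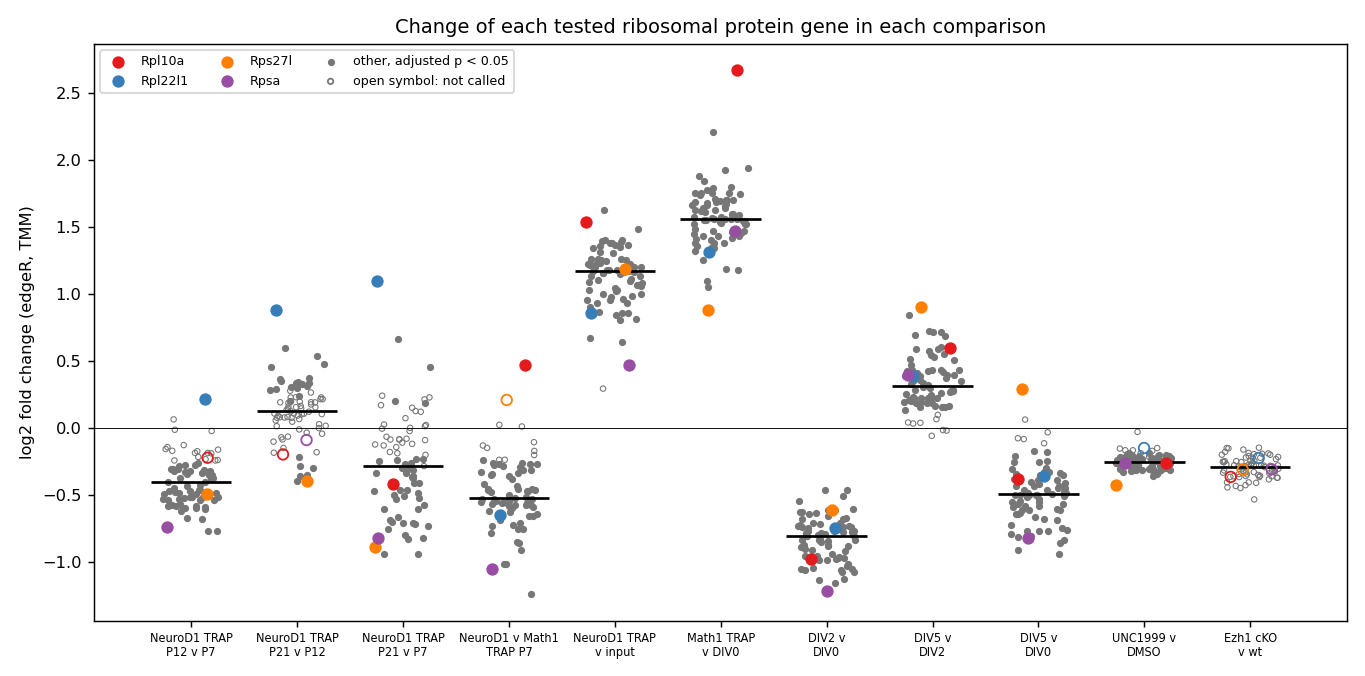
Log2 fold change (y axis, edgeR with TMM scaling) of each tested ribosomal protein gene in 11 comparisons (x axis); filled points passed an adjusted p under 0.05, bars are medians, and 4 genes are coloured. The genes shift together in most comparisons, most narrowly for UNC1999 (SD 0.06 among them), with Rpl22l1 above the rest from P7 to P21 and Rpl10a above the rest in the comparisons of TRAP with DIV0 and of the TRAP lines.

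Rpl10a was the gene higher in NeuroD1 than in Math1 TRAP, and it is the gene of the tagged protein. Its level was 1693, 1889, 1119.9 and 1218 CPM in Math1, 1926, 2027, 1960.2, 2052 and 2359.5 CPM in NeuroD1 at P7, 1446, 1877, 2103, 1576 and 1725 CPM at P12 and 1674, 1031, 1369, 1267 and 1511 CPM at P21. Input held 977, 739.6 and 636 CPM at P7, P12 and P21. In cultures of C57Bl/6J cells it was 265 and 278 CPM at DIV0 and 228 and 224 CPM at DIV5, below every library of the TRAP lines. The transgene carries L10a coding sequence, and counts of the transgene and of the native gene cannot be told apart here.

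The change of Rpl10a between NeuroD1 and Math1 was 0.47 (SE 0.15, edgeR adjusted p = 0.009), and with only Math1 replicates 1 and 2, the higher ones, it did not pass, at 0.17 (edgeR adjusted p = 0.32). As a part of ribosomal protein counts, those of the 4 X-linked genes named at the end left out, Rpl10a made up 1.13 and 1.16% at DIV0, 2.86, 2.85, 1.90 and 2.13% in Math1 and 4.72, 4.46, 4.98, 4.52 and 5.27% in NeuroD1 at P7. In P21 TRAP the 2 libraries with the highest share of ribosomal protein counts, replicates 2 and 3, had the lowest parts in Rpl10a (2.76 and 3.76%), against 4.65 to 6.19% in the other 3.

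NeuroD1 TRAP was compared with input over the 3 ages, with age as a term and 1 input library an age. 79 of 80 ribosomal protein genes were higher in TRAP and 0 lower, with a median of 1.17, where 77.8% of all genes were called, 36.6% higher and 41.2% lower. Rps2 was the 1 gene not called, at 0.29 (SE 0.14, edgeR adjusted p = 0.065), and Rpsa was called at 0.47 (SE 0.16, edgeR adjusted p = 0.0095). The genes with the largest values were Rpl41, which encodes the shortest ribosomal protein, at 1.62 (SE 0.21, edgeR adjusted p = 9.0e-07), Rpl10a at 1.54 (SE 0.13, edgeR adjusted p = 3.1e-09) and Rpl37a at 1.48 (SE 0.20, edgeR adjusted p = 1.2e-06). Across the 80 genes the value had a Spearman correlation of -0.44 with transcript length, as a description.

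Higher values in TRAP were not limited to the cytosolic ribosome. Of 78 mitochondrial ribosomal protein genes 78 were higher (median 0.96), as were 21 of 22 TOP-type genes (median 0.77) and 17 of 24 biogenesis genes. With library size scaling the median of all genes moved to -0.46 and that of the ribosomal protein genes to 0.78, with 77 of 80 still called higher.

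The fold of TRAP over input was larger at later ages in these libraries, of which input has 1 an age. In a fit with fraction by age, added after the data were seen, the median log2 value was 0.64 at P7, 1.20 at P12 and 1.77 at P21, with 69, 78 and 80 of 80 genes called higher. At P7 57.7% of all genes were called, 28.2% higher and 29.6% lower, at P12 66.4% of all genes were called, 32.6% higher and 33.7% lower, and at P21 72.8% of all genes were called, 33.6% higher and 39.2% lower. The test of P21 minus P7 called 77 of 80 higher, where 31.3% of all genes were called, 17.9% higher and 13.4% lower. With 1 input library at each age the input has no spread of its own in this fit, and its p-values assume that input varies like the TRAP replicates, so a difference between single input libraries and one between ages cannot be told apart. Rps27a, which encodes a ubiquitin fused to a small subunit protein, was at 365 CPM in input and 485, 531, 458, 537 and 513 CPM in TRAP at P7, and at 149 CPM in input and 336, 477, 458, 331 and 346 CPM in TRAP at P21; the difference of its log2 values was 1.10 (SE 0.27, edgeR adjusted p = 0.0056).

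Rpl10a was not called in that test, with 1.38 at P7, 1.59 at P21 and a difference of 0.21 (SE 0.28, edgeR adjusted p = 0.61). Mitochondrial ribosomal protein genes went from a median of 0.61 at P7 to 1.27 at P21, with 56 of 78 called higher in the same test. Leaving out P21 replicates 2 and 3 gave 77 of 80, and library size scaling 66. All 6 oligodendrocyte markers were lower in TRAP over the ages; they summed to 1111 CPM in the P7 input and 5261 CPM in the P21 input, against 230.2 to 299 and 444 to 814 CPM in TRAP, and their part was not tested. The steps from each age to the next rest on the same single input libraries. For P12 minus P7 edgeR called 1 member, where 5.1% of all genes were called, 3.36% higher and 1.74% lower, and 32 of 80 members and 21.5% of all genes had an unadjusted p under 0.05. For P21 minus P12 it called 0 members, where 3.5% of all genes were called, 0.711% higher and 2.79% lower, with 41 of 80 members and 16.98% of all genes at an unadjusted p under 0.05.

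**Figure D3:**
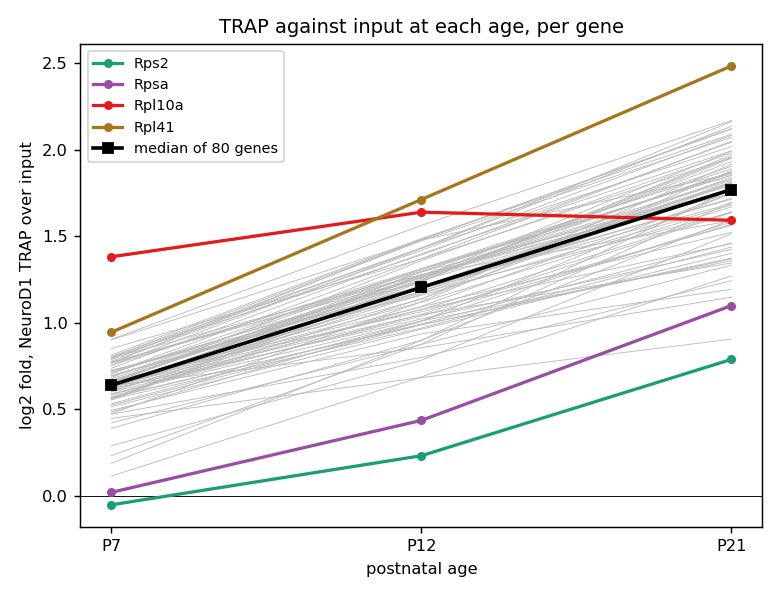
Log2 fold of NeuroD1 TRAP over input (y axis) at P7, P12 and P21 (x axis), 1 grey line per ribosomal protein gene, with 4 genes coloured and the median in black; each age has 5 TRAP libraries and 1 input library. The median rises from 0.64 to 1.77, Rps2 lies lowest at all 3 ages, and Rpl10a goes from 1.38 to 1.59.

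Math1 TRAP was also set against total RNA of freshly isolated progenitors (DIV0); these are separate preparations, so fraction and preparation cannot be told apart. All 80 tested genes were higher in TRAP, with a median of 1.56, where 66.6% of all genes were called, 33.3% higher and 33.4% lower. Rpl10a stood highest at 2.67 (SE 0.25, edgeR adjusted p = 3.4e-05), followed by Rpl36a at 2.21 (SE 0.10, edgeR adjusted p = 1.9e-06) and Rps28 at 1.94 (SE 0.11, edgeR adjusted p = 4.2e-06), both ribosomal proteins near the tRNA or mRNA path. Rps27l was the lowest, at 0.88 (SE 0.20, edgeR adjusted p = 0.0039). Mitochondrial ribosomal protein genes were higher in 76 of 78 cases (median 1.11).

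Among the members with a paralog, Rpl22l1 moved apart from its parent gene with age in TRAP, while the ratio of Rps27l to Rps27 overlapped between P7 and P12 and was lower at P21. Rpl22l1 encodes a close relative of RPL22, whose loss in mice is known to raise Rpl22l1 expression. Rpl22l1 was at 59.8, 52.02, 59.98, 58.2 and 53.6 CPM at P7, 58.9, 73.05, 69.001, 60.7 and 64.5 CPM at P12 and 95.9, 126, 124, 91.2 and 101 CPM at P21, with P21 above both earlier ages. Rpl22 was at 359, 402, 346, 405 and 385 CPM at P7, 225, 261, 291, 243 and 228 CPM at P12 and 156, 204, 199, 159 and 157 CPM at P21, with no overlap between any of the ages.

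From P7 to P21 Rpl22l1 rose by a log2 value of 1.10 (SE 0.09, edgeR adjusted p = 3.3e-10) while Rpl22 changed by -0.94; under the other scalings and tools and without P21 replicates 2 and 3 Rpl22l1 stayed between 0.92 and 1.17. The ratio of Rpl22l1 to Rpl22 counts within a library, which no scaling of libraries touches, was 0.129 to 0.173 at P7, 0.237 to 0.283 at P12 and 0.574 to 0.646 at P21. In input it was 0.198, 0.257 and 0.420 at P7, P12 and P21. There Rpl22l1 itself did not rise, at 59.6, 46.9 and 46.5 CPM, while Rpl22 was at 301, 182 and 111 CPM. The ratio was 0.189 to 0.208 in Math1 TRAP, 0.220 to 0.229 at DIV0 and 0.286 to 0.310 at DIV5. These ratios compare raw counts and not levels per length, and 42.3% of the 75-base stretches of Rpl22l1 occur in transcripts of 2 other genes. Rpl7l1, a relative of RPL7 known from the assembly of the large subunit, also moved apart from its parent gene in NeuroD1 TRAP. The ratio of Rpl7l1 to Rpl7 counts was 0.145 to 0.161 at P7, 0.197 to 0.235 at P12 and 0.253 to 0.348 at P21, without overlap. From P7 to P21 Rpl7 changed by -0.79 (SE 0.09, edgeR adjusted p = 8.8e-08) and Rpl7l1 by 0.19 (SE 0.06, edgeR adjusted p = 0.0059). Input levels at P7, P12 and P21 were 121, 92.9 and 85.3 CPM for Rpl7l1 and 722, 392 and 237 CPM for Rpl7.

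Rps27l, a p53-responsive relative of the small subunit protein RPS27, fell with age in the animal and rose in culture from DIV2 to DIV5. Its level was 64.2, 68.9, 58.6, 68.8 and 64.95 CPM at P7, 38.8, 45.1, 52.8, 47.3 and 44.2 CPM at P12 and 27.9, 35.1, 31.8, 31.4 and 29.8 CPM at P21, with no overlap between ages. In culture it was 35.8 and 35.004 CPM at DIV0, 21.96 and 23.5 CPM at DIV2, 49.8 and 43.8 CPM at DIV5 and 33.5 and 36.2 CPM at DIV5 with UNC1999. The coding sequences of Rps27 and Rps27l (GENCODE M21, each 255 bases with the stop codon) differ at 61 positions, an identity of 76.1%, and share no identical stretch over 11 bases, short of the 75-base reads. They are printed with the differing bases in capitals. Reads of the pair can be told apart, but 98.5% of the 75-base stretches of Rps27 also occur in transcripts of 4 other genes, 3 of them pseudogenes, against 8.82% of those of Rps27l, so the counts of Rps27 are uncertain.
Rps27: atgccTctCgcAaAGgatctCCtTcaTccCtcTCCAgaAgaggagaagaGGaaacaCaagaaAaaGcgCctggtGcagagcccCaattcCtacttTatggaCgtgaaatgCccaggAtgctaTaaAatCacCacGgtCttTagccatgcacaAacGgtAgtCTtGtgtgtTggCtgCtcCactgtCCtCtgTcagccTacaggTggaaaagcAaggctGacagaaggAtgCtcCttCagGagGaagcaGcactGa
Rps27l: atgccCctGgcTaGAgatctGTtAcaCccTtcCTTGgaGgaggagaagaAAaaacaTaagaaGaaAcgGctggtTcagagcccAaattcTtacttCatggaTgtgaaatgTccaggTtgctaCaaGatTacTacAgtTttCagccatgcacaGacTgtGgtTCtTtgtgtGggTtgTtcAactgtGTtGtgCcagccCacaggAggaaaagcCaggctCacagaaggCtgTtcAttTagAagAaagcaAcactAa
The ratio of Rps27l to Rps27 counts was 0.228 to 0.253 in NeuroD1 TRAP at P7, 0.205 to 0.252 at P12 and 0.138 to 0.199 at P21, so that P7 and P12 overlapped. In input it was 0.217 at P7, 0.224 at P12 and 0.193 at P21. In culture it was 0.244 to 0.264 at DIV0, 0.294 to 0.356 at DIV2 and 0.383 to 0.437 at DIV5. In the Ezh1 libraries, also at DIV5, it ran from 0.341 to 2.30 in wt and from 0.362 to 1.73 in cKO, where Rps27 itself differed between replicate sets.

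**Figure D4:**
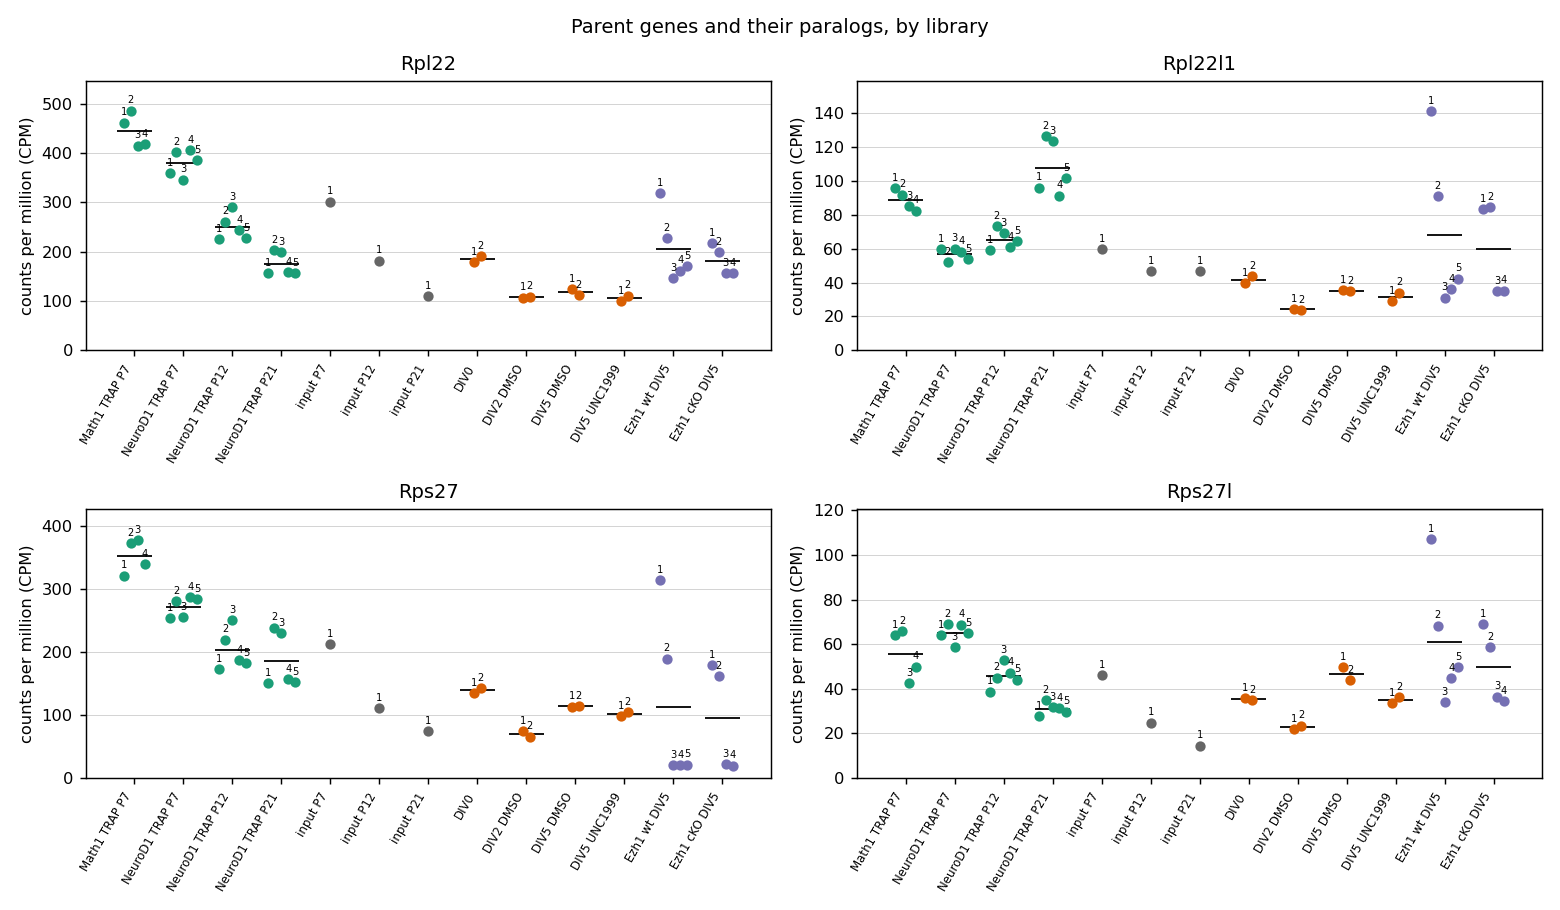
CPM (y axis) of Rpl22, Rpl22l1, Rps27 and Rps27l in each library (points, with replicate numbers) by group (x axis); bars are group means. Rpl22l1 is highest among NeuroD1 TRAP groups at P21, where Rpl22 and Rps27l are lowest, and Rps27 is at 20.9 CPM on average in Ezh1 replicates 3 to 5.

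In culture the ribosomal protein genes fell sharply in the first days and then partly recovered. At DIV2 all 80 tested genes were lower than at DIV0 with a median of -0.80, where 71.3% of all genes were called, 36.4% higher and 35% lower. Rpsa was at 701 and 691 CPM at DIV0, 280.2 and 308 CPM at DIV2 and 445 and 406 CPM at DIV5, with no overlap, and its fall to DIV2 was the largest, at -1.21 (SE 0.06, edgeR adjusted p = 4.1e-10). Rps26, a protein at the mRNA exit, changed by -1.16 (SE 0.05, edgeR adjusted p = 1.1e-10), and the smallest changes were of Rpl7l1, at -0.46 (SE 0.06, edgeR adjusted p = 1.3e-05), and Rpl38, at -0.46 (SE 0.06, edgeR adjusted p = 1.1e-05).

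Between DIV2 and DIV5, 72 of 80 rose and 0 fell at a median of 0.32, where 66.7% of all genes were called, 31.1% higher and 35.7% lower. Rps27l rose most, by 0.90 (SE 0.09, edgeR adjusted p = 4.7e-07), followed by Rpl12, a protein at the base of the stalk, at 0.84 (SE 0.10, edgeR adjusted p = 4.5e-05). Rps18 and Rps19, both in the head of the small subunit, changed by 0.72 (SE 0.07, edgeR adjusted p = 2.9e-07) and 0.72 (SE 0.07, edgeR adjusted p = 2.8e-07). The genes not called included Rpl22, at -0.01 (SE 0.07, edgeR adjusted p = 0.86), and Rpl7, at 0.04 (SE 0.05, edgeR adjusted p = 0.52). Biogenesis genes did not share the rise: 0 of 24 rose and 16 fell, and of the 22 TOP-type genes 8 rose and 3 fell. Markers of some other cell types rose over the same days. All 6 microglia markers rose, with sums of 51.8 to 56.6 CPM at DIV2 and 423 to 446 CPM at DIV5. All 6 astrocyte markers rose, with sums of 773 to 781 and 1921 to 1982 CPM. Of 6 vascular and meningeal markers 4 rose and 0 fell, and of 7 dividing cell markers 3 rose and 1 fell. Of 9 granule cell markers 4 rose and 5 fell, with sums of 6152 to 6350 CPM at DIV2 and 3665 to 3818 CPM at DIV5. The part of all these markers in the rise was not tested.

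Over the whole culture, DIV5 against DIV0, 74 of 80 genes fell and 1 rose at a median of -0.49, where 78.3% of all genes were called, 40.2% higher and 38.2% lower. Rpl4, a large subunit protein that lines the exit tunnel, changed by -0.94 (SE 0.07, edgeR adjusted p = 9.2e-08), and Rpsa by -0.82 (SE 0.06, edgeR adjusted p = 1.9e-08), while Rps27l rose, at 0.29 (SE 0.08, edgeR adjusted p = 0.0059), a call lost without DIV5 replicate 1 (0.17, edgeR adjusted p = 0.11). The 5 genes not called were Rps2, Rps18, Rplp1, Rpl12 and Rpl39, named after their values were seen. All 24 biogenesis genes and 19 of 22 TOP-type genes fell, as did 46 of 78 mitochondrial ribosomal protein genes, of which 7 rose. Of 6 vascular and meningeal markers 3 rose and 3 fell from DIV0 to DIV5; they summed to 481 and 488 CPM at DIV0, 2088 and 3531 CPM at DIV2 and 8781 and 8057 CPM at DIV5, and the 7 dividing cell markers, of which 7 fell, to 2811 and 2725, then 132 and 185, then 247 and 248 CPM; their part in the results was not tested.

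The change over the culture was tested against the change in the animal, DIV5 minus DIV0 less P21 minus P7. In culture 15 of 80 genes had a lower log2 fold change than in the animal and 2 a higher one. Among all genes 66.3% were called, 38.3% higher and 28% lower. The median was -0.18 for the ribosomal protein genes against 0.17 for all genes. The 2 higher ones were Rps27l, at 1.24 (SE 0.14, edgeR adjusted p = 6.5e-07), and Rps2, at 0.71 (SE 0.21, edgeR adjusted p = 0.0077). The most negative were Rpl22l1, at -1.39 (SE 0.18, edgeR adjusted p = 3.6e-06), Rpl38, at -0.85 (SE 0.19, edgeR adjusted p = 9.1e-04), and Rps21, at -0.83 (SE 0.18, edgeR adjusted p = 8.1e-04). Each had risen in NeuroD1 TRAP and fallen in culture. In culture Rpl22l1 changed by -0.36 (SE 0.08, edgeR adjusted p = 0.0014), Rpl38 by -0.25 (SE 0.06, edgeR adjusted p = 0.0019) and Rps21 by -0.44 (SE 0.06, edgeR adjusted p = 6.3e-06). In input, total RNA of the animal with 1 library an age, the level of each was lower at P21 than at P7. Library size scaling gave 6 lower and 13 higher, at a median of 0.04 against 0.38 for all genes, and leaving out P21 replicates 2 and 3 gave 18 lower and 20 higher. Leaving out DIV0 replicate 2, DIV5 replicate 1 or DIV5 replicate 2 gave 8, 7 and 6 lower. The animal libraries are ribosome-bound RNA and the cultures total RNA, and fraction and setting cannot be told apart.

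UNC1999 blocks the methylation of histone H3 lysine 27 by EZH2 and EZH1. At DIV5 with UNC1999, 70 of 80 ribosomal protein genes were lower than with DMSO and 0 higher, where 11.9% of all genes were called, 6.36% higher and 5.53% lower. The shift was small and even: the median was -0.26, the SD among the genes 0.06 and the range -0.42 to -0.03. Rps6 was at 357 and 337 CPM with DMSO and 267 and 288 CPM with UNC1999, a change of -0.32 (SE 0.06, edgeR adjusted p = 0.0018). Rpl5 was at 411 and 394 CPM with DMSO and 319 and 340.5 CPM with UNC1999, a change of -0.29 (SE 0.05, edgeR adjusted p = 0.0022), and the groups did not overlap for either.

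Rps27l fell most with UNC1999, at -0.42 (SE 0.08, edgeR adjusted p = 0.0048), and Rpl23, a large subunit protein that also binds MDM2, changed by -0.34 (SE 0.05, edgeR adjusted p = 0.0013). The 10 genes not called included Rpl22, Rpl22l1, Rps27 and Rpl7l1, the last at -0.03 (SE 0.06, edgeR adjusted p = 0.83). Of the TOP-type genes 8 of 22 were lower and 0 higher, among them Rack1, a protein bound to the small subunit, at -0.32 (SE 0.06, edgeR adjusted p = 0.0033), and Eef1b2, an elongation factor subunit, at -0.30 (SE 0.06, edgeR adjusted p = 0.0053). Of 24 biogenesis genes 0 were lower and 1 was higher, Ubtf at 0.16 (SE 0.05, edgeR adjusted p = 0.047), and of 78 mitochondrial ribosomal protein genes 2 were lower.

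The count with UNC1999 rests on 2 libraries a group. Without DMSO replicate 1 it was 16 of 80 and without UNC1999 replicate 1 it was 15, at medians of -0.20 and -0.21; the lone library left is then assumed to vary like the other groups. Of 6 vascular and meningeal markers 1 was lower and 0 higher, and they summed to 8781 and 8057 CPM with DMSO and 6673 and 6572 CPM with UNC1999. Of 6 interneuron markers 4 were lower and 0 higher, and of 6 astrocyte markers 3 were lower and 0 higher. The 9 granule cell markers, of which 7 were higher and 0 lower, summed to 3665 and 3818 CPM with DMSO and 5008 and 5164 CPM with UNC1999. The part of these markers in the result with UNC1999 was not tested.

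In the Ezh1 experiment the targeted gene was lower in the knockout libraries. Ezh1 was at 40.7, 42.1, 49.9, 47.5 and 40.99 CPM in wt and 34.8, 36.5, 35.6 and 33.7 CPM in cKO, without overlap; which exons the floxed allele loses is not given in the sources used here. None of the 77 ribosomal protein genes tested was called with edgeR (0 at an unadjusted p under 0.05, and 0 called with DESeq2), and 0% of all 14461 genes were. The median was -0.29 in the knockout against -0.01 for all genes, with a median SE of 0.75.

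That median depended on 1 library and on the replicate set. Shares of counts in ribosomal protein genes were 5.42, 3.41, 0.957, 1.07 and 1.12% in wt replicates 1 to 5 and 3.18, 2.81, 1.00 and 0.965% in cKO replicates 1 to 4, so replicates 1 and 2 lay above 3 to 5 in both genotypes and wt replicate 1 above all. Within replicates 1 and 2 the median was -0.60, within replicates 3 to 5 it was -0.08, and with the set as a term -0.32. In that last fit all 77 values were below 0, with a median SE of 0.16, and 29 of 77 members and 7.84% of all genes had an unadjusted p under 0.05. Without wt replicate 1 the median was 0.36, or -0.12 with the set as a term, and no ribosomal protein gene was called in any of these edgeR fits.

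Most ribosomal protein genes were lower in replicates 3 to 5 than in replicates 1 and 2, whatever the genotype. Of the 76 genes with at least 10 CPM on average in replicates 1 and 2, 72 were lower in every library of replicates 3 to 5, against 22.6% of 10572 genes at that level. The median ratio of mean CPM, replicates 3 to 5 over 1 and 2, was 0.229 for these genes and 1.06 for all, 0.886 for mitochondrial ribosomal protein genes and 0.609 for the TOP-type genes. Rpl26, a large subunit protein that binds p53 mRNA, was at 491, 306, 0, 0 and 0 CPM in wt and 285, 266, 0 and 0 CPM in cKO, so it is listed at 0 in all 5 libraries of replicates 3 to 5, as were 19 (0.180%) of the 10572 genes. Rps3, a small subunit protein at the mRNA entry, was at 1072, 663, 407, 479 and 528 CPM in wt and 611, 522, 435 and 424 CPM in cKO, with the sets overlapping. Some lists of cell markers split by the same sets without overlap: microglia markers summed to 227 to 314 CPM in replicates 1 and 2 and 17.5 to 35.9 CPM in replicates 3 to 5, oligodendrocyte markers to 658 to 967 and 163 to 240.2 CPM, vascular and meningeal markers to 5718 to 7758 and 3367 to 5117 CPM, and granule cell markers to 3144 to 3846 and 4603 to 5615 CPM. Interneuron markers summed to at most 133 CPM in replicates 1 and 2 and at least 286 CPM in replicates 3 to 5. Other lists overlapped. Astrocyte markers summed to 5421 to 11777 CPM in replicates 1 and 2 and 2328 to 5903 CPM in replicates 3 to 5, and dividing cell and Purkinje cell markers overlapped too. The part of these markers in the difference was not tested.

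The ratio ran with how much of a gene's sequence is found elsewhere. For each gene the share of its 75-base stretches, the read length, that also occur in transcripts of other genes was counted in GENCODE M21. The ratio had a Spearman correlation of -0.64 with that share over 76 genes, which share the same libraries, and is a description. The 28 genes that share at least 50% of their stretches had ratios of 0 to 0.339 (median 0.168), and the other 48 had 0.0663 to 0.907 (median 0.312). Rps3 shares 0% and had a ratio of 0.634. How each set was quantified is not given separately in the sources used here, and the part of shared sequence in the difference was not tested.

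Rpl26 shows the overlap at the level of a read. Of its 364 coding stretches of 75 bases 260 occur in other genes' transcripts, and of the 658 of Rps3 0 do. Over the whole transcript, as counted above, Rpl26 shares 57.5%. Rps27 shares 98.5% and was not at 0, with 20.9 CPM on average in replicates 3 to 5. The part of shared sequence in the zeros of Rpl26 was not tested. The stretch printed here, coding bases 33 to 107 of Rpl26, is the first of those found in the most other genes, 3 annotated pseudogenes.
Rpl26, coding bases 33 to 107: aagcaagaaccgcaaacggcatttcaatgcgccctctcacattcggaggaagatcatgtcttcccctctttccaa
A read of these letters does not name its gene, so the counts of Rpl26 and of genes like it are uncertain where the counting could split them.

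**Figure D5:**
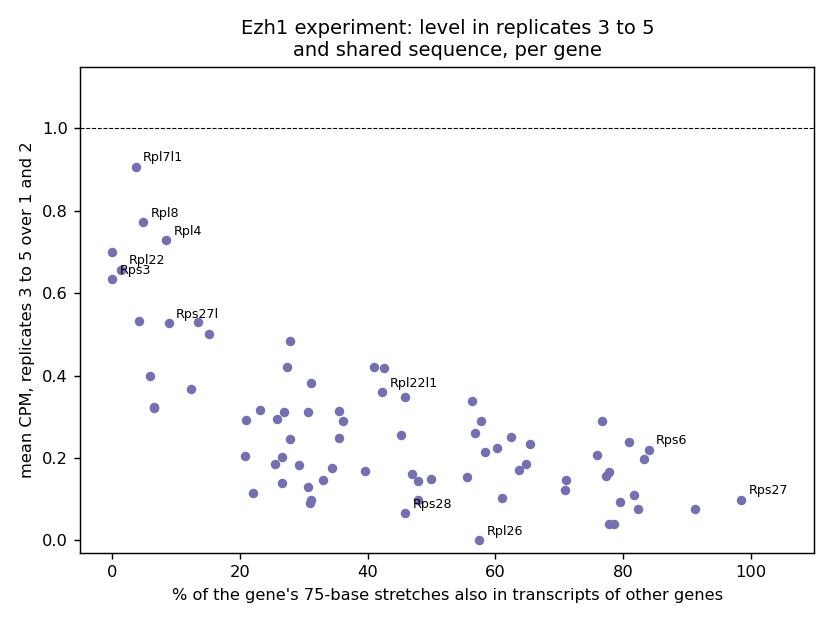
Ratio of mean CPM in Ezh1 replicates 3 to 5 over replicates 1 and 2 (y axis) against the percent of 75-base stretches that a gene shares with transcripts of other genes (x axis), 1 point for each of 76 ribosomal protein genes. The points nearest to the dashed line at 1 are of genes with little shared sequence, such as Rpl7l1 and Rpl8. Other genes with little shared sequence lie lower, such as Rps20 (6.55% shared, ratio 0.321) and Rpl32 (5.87% shared, ratio 0.398). Rpl26 sits at 0.

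The remaining members were low or blank. Rpl10l, a paralog of Rpl10 known from testis, had 0 counts in all 39 libraries, and Rpl39l, also known from testis, reached at most 0.418 CPM. Rpl3l, the striated muscle paralog of Rpl3, reached 0.649 CPM, in the P21 input. Rpl32l was at 0.227, 0.119, 15.1, 16.8 and 18.4 CPM in wt replicates 1 to 5 and 0.0458, 0.0557, 17.7 and 17.5 CPM in cKO replicates 1 to 4, and at most 0.261 CPM in every other library, so its level split by replicate set in the direction opposite to the other members. The 4 X-linked genes Rpl10, Rpl36a, Rpl39 and Rps4x had no value in the Ezh1 libraries.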

How the data were processed

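RNA of 39 libraries was sequenced as 75-base single reads after poly(A) selection, per the labels' protocols. The deposited table holds whole-number counts per Entrez gene made by the authors, with Salmon 0.8.2 and mm10 named among tools and builds per the submitters' processing notes; how transcripts were summed to genes is not given in the sources used here. RefSeq names (GRCm38.p6) matched 24045 of 24100 identifiers. The members and gene lists were chosen with earlier results of these data known.

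Comparisons were fitted by experiment (both TRAP lines, NeuroD1 TRAP with input, cultures, Ezh1 cultures, Math1 TRAP with DIV0, and NeuroD1 TRAP at P7 and P21 with DIV0 and DIV5) with edgeR 4.0.16 in R 4.3.3: genes filtered with a minimum count of 10 and a minimum total of 15, TMM scaling, two-sided quasi-likelihood test, Benjamini-Hochberg adjustment over all genes tested, call at 0.05. Values are log2 fold changes. The fit was tested on simulated data with 200 changed genes and a dispersion of 0.02. It recovered 99% of 2-fold and 100% of 4-fold changes for P21 against P7 (12931 genes). For DIV5 against DIV0 (14368 genes) it recovered 79.2% and 100%. Changes under 2-fold, the size of the median member change in most comparisons, are not covered by these rates. The genes named are the tag gene, stalk and anchor genes, paralogs with their parents, per comparison the extremes by change and adjusted p, genes failing the filter or blank, and up to 3 genes of each list.

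Replicate numbers recur between groups. In the Ezh1 libraries all 4 same-numbered pairs deviated together (correlation 0.82 to 0.90), which includes the difference between replicates 1 and 2 and replicates 3 to 5, so the pairing was kept as an alternative: the blocked edgeR fit called 0 ribosomal protein genes, with 37 of 77 and 9.87% of all genes at an unadjusted p under 0.05. Alternatives were library size scaling, TMM without the members, DESeq2 1.42.0, no filter, a replicate block and each library left out. The split of TRAP and input by age, leaving out P21 replicates 2 and 3, the fit without Ezh1 wt replicate 1 and with the set as a term, and the crossed block were chosen after seeing the data. A result is not reported here.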

Additional observations from a re-analysis of the deposited data

Results flagged for a closer look

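Rpl10a in NeuroD1 TRAP at P7 had 1 library, replicate 5, at 2359.5 CPM, far from the other 4, with a gap of 0.710 of the group's range. Rps6 in Math1 TRAP had replicate 1 at 1054 CPM, below the other 3, with a gap of 0.871 of the range. These were 2 of 118 groups and quantities looked at (1.69%), and chance marks about 1 in 20.

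The change in culture less the change in the animal was tested as a difference of log2 fold changes in 1 edgeR fit, and 17 of 80 members passed, 15 lower and 2 higher, where 66.3% of all genes were called. The 2 higher became 13 with library size scaling and 20 without P21 replicates 2 and 3. Rps27l had the highest value, 1.24. Values below 0 were -1.39 for Rpl22l1, -0.85 for Rpl38, -0.83 for Rps21, -0.60 for Rpl7l1, -0.50 for Rps27a and -0.44 for Rplp2. The fold of TRAP over input was higher at P21 than at P7 for 77 of 80 members, where 17.9% of all genes were; that test rests on 1 input library at each age, which is assumed to vary like the TRAP replicates.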

How the results depend on the processing

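Counts of called members were within 1.5 times the main value in 193 of 210 counts under the alternatives. No named member called in the main fit changed sign. Of the named members' values 2841 were counted as unchanged, 50 came to pass the threshold and 99 no longer passed. The unchanged values include any change of sign of a member not called in the main fit, whether or not the alternative called it. The step from P12 to P21 depended on scaling and on 2 libraries. Its 19 members higher became 7 with library size scaling, 6 without P21 replicates 2 and 3, and 12 to 30 when each library was left out in turn. Its 7 members lower became 14 and 21 under the first and second of these, and its median of 0.13 became -0.025 with library size scaling and -0.096 without those libraries. From P7 to P21 the 5 members higher became 3 with library size scaling, 9 with DESeq2 and 4 to 9 with each library left out. For the change in culture less that in the animal, the 15 members lower became 6 with library size scaling, where the median reversed to 0.039, and 6 to 22 with each library left out. With UNC1999 the 70 members lower became 15 to 67 with each library left out. The cause of these differences was not tested.

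With the replicate number as a block, UNC1999 gave 57 members lower, P21 against P7 gave 7 higher, P21 against P12 gave 24 higher, DIV5 against DIV2 gave 70 higher and the Ezh1 knockout 0; no count of members moved by over 1.5 times. Outside the Ezh1 libraries same-numbered samples share only a number. Same-numbered DIV2 and DIV5 libraries had a correlation of -0.16, and the block with the DIV2 numbers crossed gave 72 members higher. No paired analysis was possible for TRAP against input because each age has 1 input library.

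With 2 libraries a group in the cultures and 1 input an age, small differences between members were not detectable. P-values of the Ezh1 comparison have a median SE of 0.75 behind them. Counting error alone is small for members at these depths, apart from Rpl39l, Rpl3l and, outside Ezh1 replicates 3 to 5, Rpl32l, and Rpl10l has no counts.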
